A study of Caenorhabditis elegans with 2 samples.

Results

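The genes described here are the homeobox transcription factor genes of Caenorhabditis elegans, and the question is where the zinc finger factor BLMP-1 was found at them in embryos. Members were the protein-coding genes of the WBcel235 annotation that carry a ceh number or 1 of a fixed set of other homeobox gene symbols, among them the HOX genes lin-39, mab-5, egl-5, nob-1 and php-3. They were chosen by symbol alone, and the rule found 88 of the 19985 protein-coding genes. Homeobox genes encode proteins that bind DNA through a homeodomain. In the worm they set identities along the body axis and, above all, the identities of neuron classes. BLMP-1, the homologue of vertebrate PRDM1, is best known in the worm for its part in the epidermis and in the timing of development, so these genes lie largely outside its best known setting.

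The study mapped eGFP-tagged BLMP-1 by ChIP-seq in 2 biological replicates of strain OP109, which carries the unc-119(ed3) III mutation and the transgene insertion wgIs109 for blmp-1. Whole embryos of mixed stages and pooled male and female sex were used, and both libraries held fragments of 150 to 350 bp. There was no second condition, and the control experiment that the labels list as possible was not analysed here. The deposited lists were 843 peaks that the authors kept as optimal by IDR (irreproducible discovery rate), a pooled list of 30000 candidate regions, and 30000 candidates for each replicate. The lists hold no read counts, so depth is unknown, and everything below is a description with no p-value. In whole embryos, a site held strongly in few cells and a site held weakly in many cells cannot be told apart. The 843 IDR peaks were the 843 strongest regions of the pooled list, so a pooled rank of 843 or better and a place in the IDR list are the same statement.

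The sequences below are those at the summits of the member peaks that the description turns on, 50 bp to either side of the summit, on the plus strand of ce11 (RefSeq copy of WBcel235). Sequence of annotated UTRs is given for 25 bases only. Capitals mark the BLMP-1 core AAGTGAAA or its last 7 letters, the repeat word GAGAGA, or, at ceh-39, an annotated tRNA gene, each on either strand.
ceh-86, chrII:2435707-2435807, summit 3685 bp upstream: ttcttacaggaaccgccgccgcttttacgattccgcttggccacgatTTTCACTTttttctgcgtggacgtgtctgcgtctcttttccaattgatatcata
unc-4, chrII:9899945-9900045, summit in an intron: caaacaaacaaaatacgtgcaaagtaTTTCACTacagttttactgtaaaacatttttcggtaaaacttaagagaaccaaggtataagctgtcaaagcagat
unc-4, chrII:9901231-9901331, summit 905 bp upstream: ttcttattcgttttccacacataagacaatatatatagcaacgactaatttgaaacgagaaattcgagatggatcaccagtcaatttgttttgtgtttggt
unc-62, chrV:4499352-4499376, summit near an internal start: gttgcccgttTCTCTCTCtttcggt
ceh-39, chrX:1858808-1858908, summit 2686 bp upstream: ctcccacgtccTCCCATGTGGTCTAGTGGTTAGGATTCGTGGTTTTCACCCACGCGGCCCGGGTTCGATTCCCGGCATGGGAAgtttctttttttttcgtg
zag-1, chrIV:3855600-3855700, summit 193 bp upstream: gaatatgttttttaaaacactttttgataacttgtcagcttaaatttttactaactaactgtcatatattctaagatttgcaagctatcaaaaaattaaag

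Strong BLMP-1 peaks were rare at homeobox genes, about as rare as at genes in general. An IDR summit lay in the body or within 5000 bp upstream of 5 of the 88 members, 5.68%, against 6.27% of all protein-coding genes. The 5 were unc-4, ceh-86, unc-62, ceh-39 and zag-1. In a window of equal length for every gene, 2000 bp before the gene start and 500 bp after it, unc-4 and zag-1 alone had an IDR summit, 2.27% of the members against 3.36% of all genes. A pooled rank of 2000 or better was reached at 12 members, 13.6%, against 13.7% of all genes. The share of strong peaks among homeobox genes was thus near the background under each of these rules.

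Weak candidates, in contrast, were somewhat more widespread at homeobox genes than at other genes. A pooled candidate of any strength lay in the window of 80 members, 90.9%, against 78.5% of all genes. Homeobox genes are longer, with a median body of 3394 bp against 2026 bp, which widens that window. In the window of equal length a candidate lay at 57 members, 64.8%, against 55.2% of all genes. The next shares are again for the body plus 5000 bp upstream, the window that is longer at homeobox genes. A best pooled rank of 10000 or better was found there at 55 members, 62.5%, against 48.4% of all genes. In replicate 1 alone it was 57 members, 64.8%, against 49% of all genes, and in replicate 2 alone 48 members, 54.5%, against 51.1%. The gap at this rank was thus mostly that of replicate 1. For a candidate of any strength both replicates showed a gap. It was 85.2% of members against 79.6% of all genes in replicate 1, and 88.6% against 84.0% in replicate 2. Merged over all members, the windows covered 0.793 Mb and held 376 candidates per Mb, against 299.6 per Mb over the windows of all genes. The median best pooled rank of the 80 members was 6873.5, against 7366.5 over the 15686 genes with a candidate, and in the equal window the order turned round, with 12361 for 57 members against 10566. It was 5395 against 7367 in replicate 1 and 7746.5 against 7492 in replicate 2, where the order was turned round as well. The strongest region of a typical homeobox gene was thus in the upper part of the list of 30000, near the value for all genes, and outside the IDR list.

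**Figure D1:**
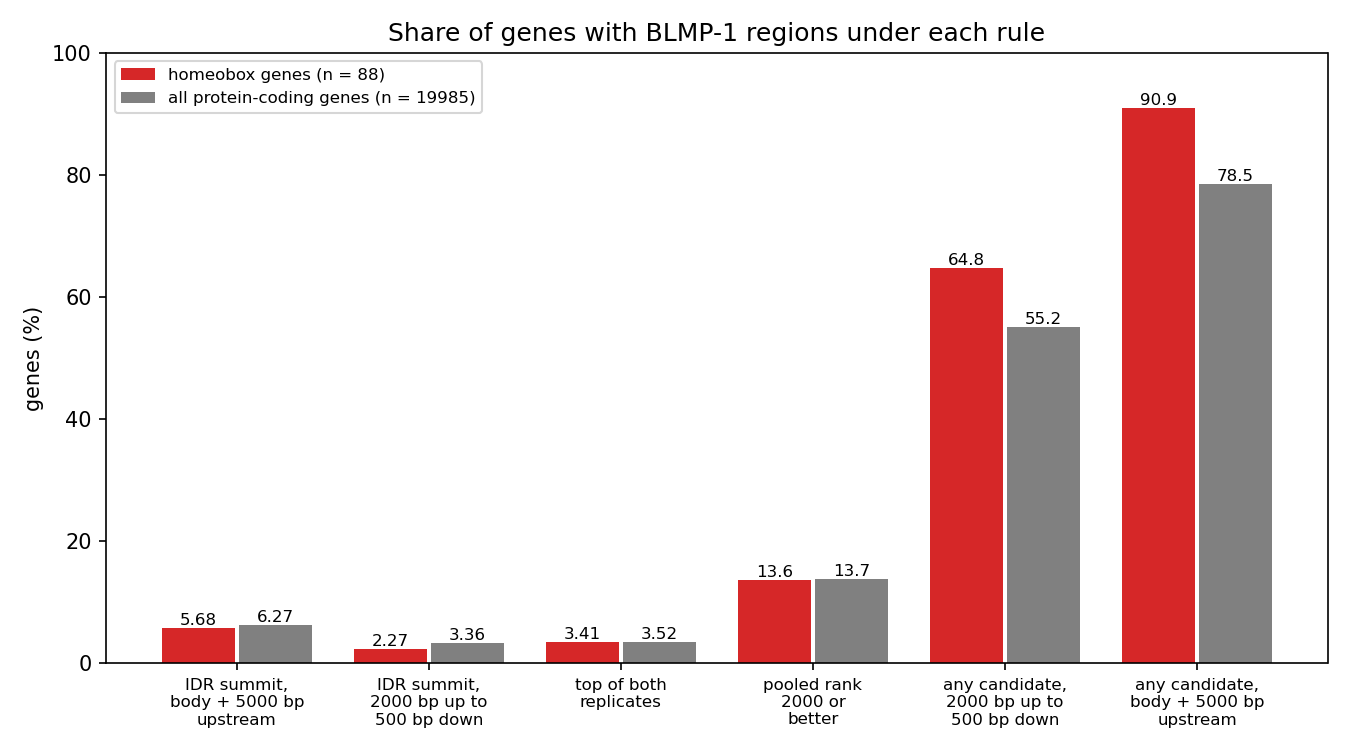
Share of genes, in percent, with a BLMP-1 region under 6 rules, for the 88 homeobox genes (red) and all 19985 protein-coding genes (grey). The bars for IDR summits stand at 5.68% and 6.27%, and those for any pooled candidate at 90.9% and 78.5%.

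**Figure D2:**
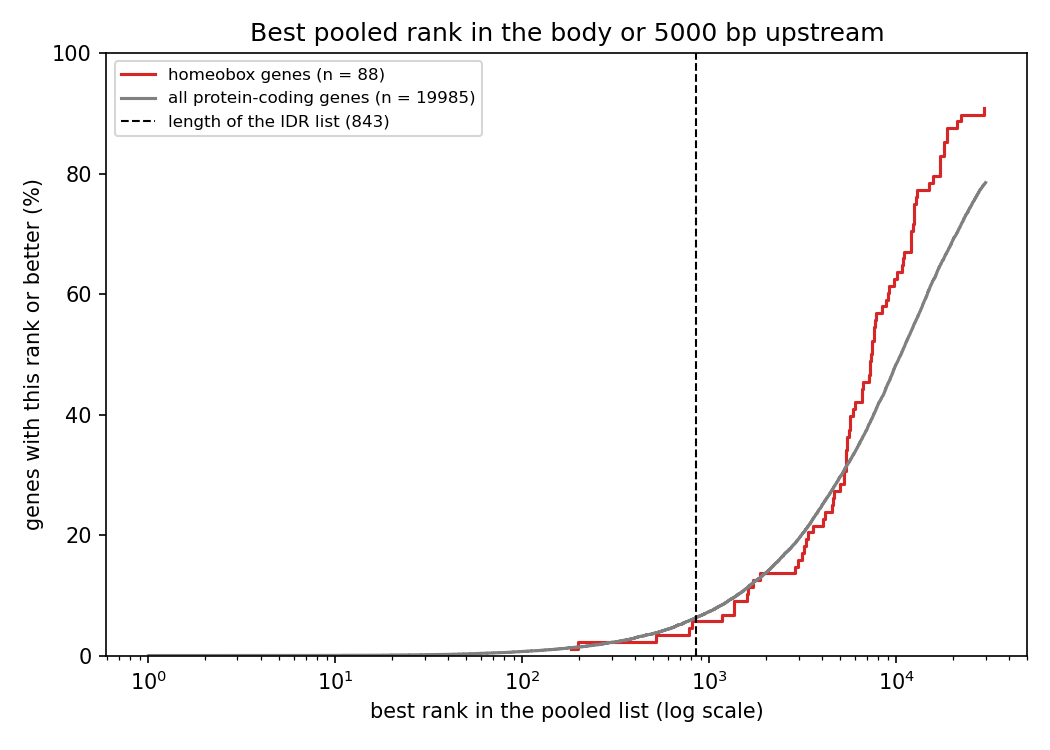
Cumulative share of genes, in percent, against the best rank in the pooled list on a log scale, for homeobox genes (red) and all protein-coding genes (grey). Ranks are for the body plus 5000 bp upstream, a window that is longer at homeobox genes. The curves lie close together up to rank 5000, with 28.4% of homeobox genes and 29.7% of all genes, and the homeobox curve is the higher one at rank 10000, with 62.5% against 48.4%.

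The highest pooled signal value at a member was at unc-4, a paired-like gene that sets which inputs a class of motor neurons receives, and it rested largely on replicate 1. The unc-4 window held 6 of the 11 IDR summits at members. Their pooled signal values were 96.2 in an intron 381 bp downstream of the gene start, 77.6 at 2297 bp upstream, 75.2 at 359 bp upstream, 70.02 at 905 bp upstream, 64.2 in an intron at 1700 bp downstream and 58.4 in coding sequence at 1041 bp downstream. In replicate 1 the window held 12 candidates, 8 of them among its 843 strongest regions, with the best at rank 98 and signal value 88.1. In replicate 2 it held 1 candidate, at rank 1494 with signal value 17.7, centred 961 bp upstream. That candidate overlaps the IDR peak 905 bp upstream, which ranked 262 in replicate 1. The other 5 IDR peaks of unc-4 overlapped no candidate of replicate 2 at all.

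The unc-4 regions also differed from the rest in shape and place. Of the 6 peaks, 5 were between 86 and 197 bp wide, while the remaining 1 and each IDR peak of the other members spanned 316 bp. Of the 12 replicate 1 candidates, 11 followed each other from the 3′ UTR, 2586 bp downstream of the gene start, to 2550 bp upstream, and the weakest, at rank 21329, lay farther off in F26C11.3. Coding sequence and the 3′ UTR of unc-4 held 4 of them. None of the 6 IDR summits had AAGTGAAA or GAGAGA within 50 bp, and the intron summit of signal value 96.2 had the 7-letter word AGTGAAA. For this run over exons, introns and upstream sequence in 1 replicate, BLMP-1 binding and an excess of DNA of the locus in that library cannot be told apart from the peak lists. The unc-4 signal values are therefore given as listed, and not as a measure of BLMP-1 binding at the gene.

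**Figure D3:**
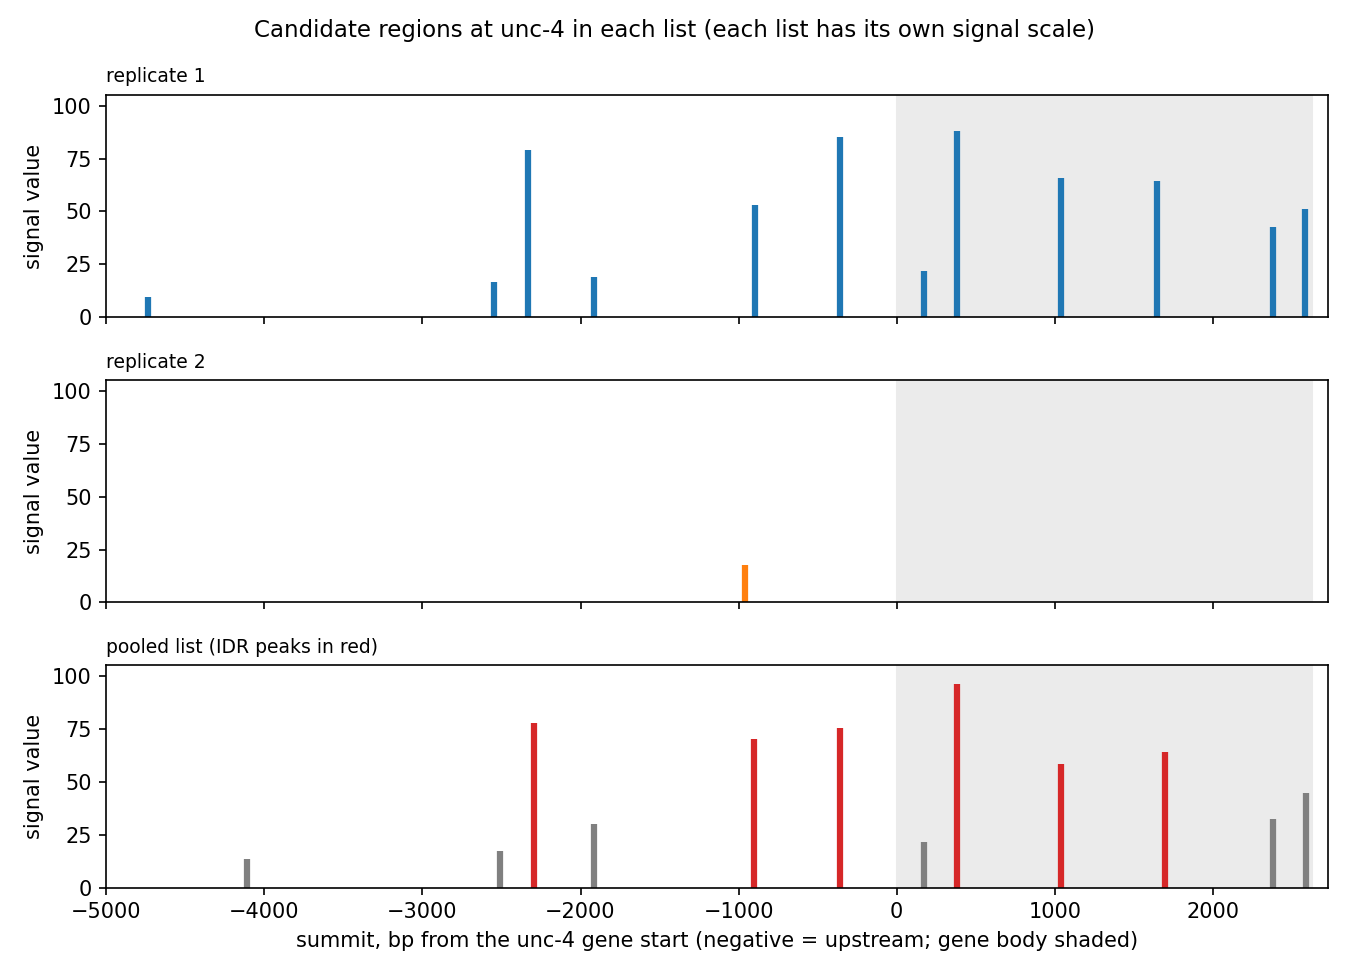
Signal value of every candidate region in the unc-4 window against the distance of its summit from the gene start in bp, for replicate 1, replicate 2 and the pooled list, with IDR peaks in red and the gene body shaded. Replicate 1 shows 12 regions up to signal value 88.1, replicate 2 shows 1 of signal value 17.7; each list has its own scale.

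Because unc-4 carried 6 of the 11 member summits, counts of summits depended on it. The 11 summits gave 13.9 IDR summits per Mb of homeobox windows, against 8.57 per Mb over all genes. Without unc-4 the 5 remaining summits gave 6.37 per Mb, below the value for all genes. Having 2 or more IDR summits applied to 2 members, unc-4 and unc-62, which is 2.27% against 0.655% of all genes. That share includes unc-4 itself, and the second unc-62 summit overlapped no candidate of replicate 2, so it is not read against the background. The number of members with an IDR summit was 4 of 87 without unc-4.

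The peak upstream of ceh-86 had the best support of any member peak in both replicates. It ranked 199 in the pooled list with signal value 92.3, 318 in replicate 1 with 48.5 and 288 in replicate 2 with 32.9. The summit lay between genes at II 2435757, 3685 bp upstream of ceh-86, whose start was the nearest of any protein-coding gene. No other protein-coding gene had this summit in its window. It was also the sole IDR summit at a member with the full core AAGTGAAA, on the minus strand, centred 0.5 bp from the summit. The gene carries a ceh number, is placed in no homeobox class here, and no role is given for it.

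At unc-62, the worm Meis gene and a partner of HOX proteins, an IDR peak stood at an internal transcript start. The first summit, at V 4499364 with pooled signal value 59.1 and rank 519, lay 1903 bp into the gene and 34 bp downstream of 1 of its 15 annotated transcript starts, in a 5′ UTR. It ranked 702 in replicate 1 with signal value 32.4 and 560 in replicate 2 with 25.2. GAGAGA words on both strands lay within 50 bp, the closest centred 0.5 bp from the summit. The second summit, 8094 bp into the gene, had pooled signal value 49.8 and rank 730. It ranked 512 in replicate 1 with signal value 38.3 and overlapped no candidate of replicate 2, so only the first site was found in both.

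The peak assigned to ceh-39 lay on a tRNA gene. CEH-39 is a ONECUT protein that signals X chromosome dose in sex determination. The summit, X 1858858, was 2686 bp upstream of ceh-39 but inside an annotated tRNA gene of 72 bp, X 1858819 to 1858890, and the nearest protein-coding start was that of T26C11.8 at 1864 bp. The pooled signal value was 48.3 at rank 779, and the ranks were 1801 in replicate 1 (22.5) and 521 in replicate 2 (25.9). Neither AAGTGAAA nor GAGAGA lay within 50 bp. Among the strongest pooled regions of the 80 members, the one other summit within 200 bp of a tRNA gene was that of ceh-90, at rank 15768.

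zag-1, the worm ZEB gene, which encodes a zinc finger homeodomain protein of differentiating neurons, had its IDR peak in the proximal promoter. The summit at IV 3855650, 193 bp upstream, had pooled signal value 47.3 and rank 812. In replicate 1 this region ranked 637 with signal value 34.4, and in replicate 2 it ranked 5484 with 11.4. The strongest region of replicate 2 at zag-1 was elsewhere, in coding sequence 1101 bp downstream, at rank 801 with signal value 21.96 and a rank of 6735 in replicate 1. The zag-1 window held 13 pooled candidates, and the summit sequence had neither AAGTGAAA nor GAGAGA.

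Agreement between the replicates was narrower than the IDR count. A region among the 843 strongest of each replicate lay in the windows of 3 members, ceh-86, unc-62 and zag-1, which is 3.41% against 3.52% of all genes. At ceh-86 and unc-62 the top regions of the replicates overlapped, and at zag-1 they did not. The largest gaps between the best ranks of the replicates, among members with an IDR summit or a top region, were at unc-4 (98 in replicate 1 and 1494 in replicate 2), lin-39 (5054 and 754) and ceh-39 (1801 and 521). At zag-1, ceh-86 and unc-62 the best ranks of the replicates differed by less than 1.5 times, but only at ceh-86 did both belong to the same region. At unc-62 the best ranks, 512 and 560, were of different sites, and the site found in both replicates ranked 702 and 560. Of the 80 strongest pooled regions of members, 38 overlapped a candidate in both replicates, 47.5%, against 39.2% of those of all genes. Another 23 overlapped one in replicate 1 alone, 13 in replicate 2 alone and 6 in neither. Over the 15686 genes with a candidate these counts were 5094, 2825 and 1625, so replicate 1 alone was the more frequent there as well.

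**Figure D4:**
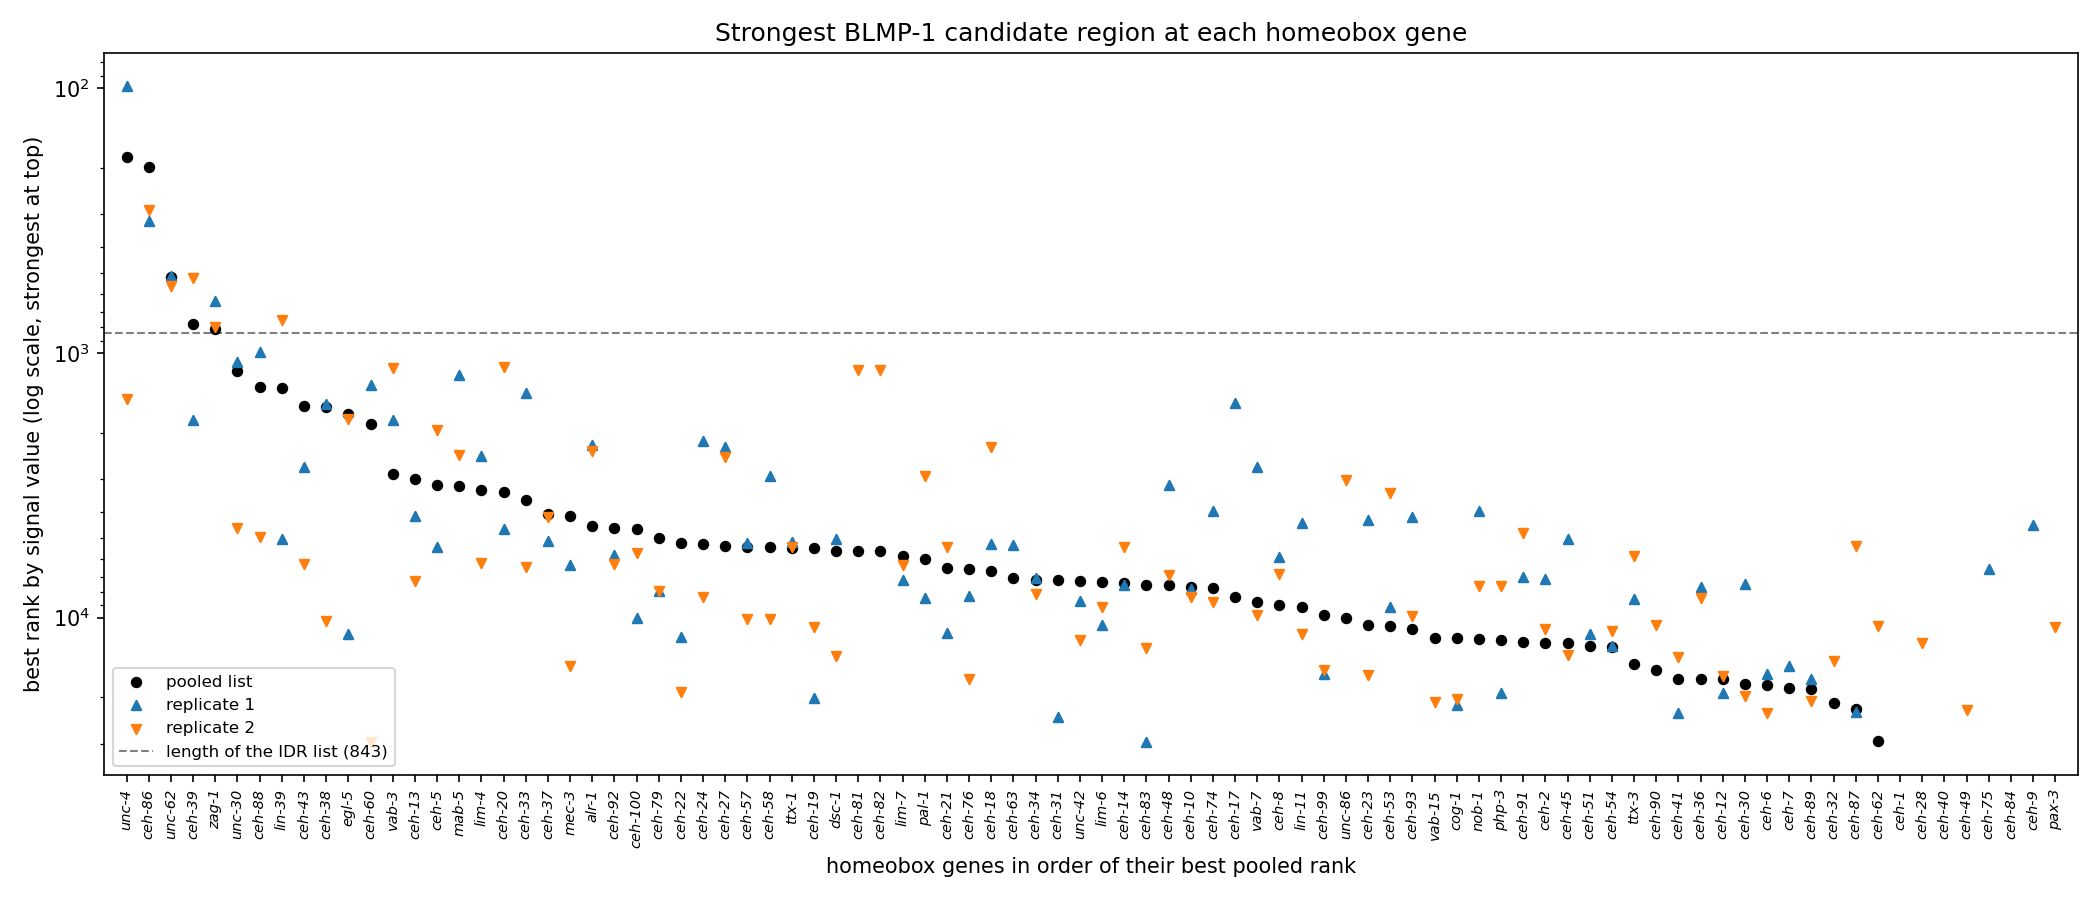
Best rank by signal value on a log scale, strongest at the top, of each of the 88 homeobox genes in the pooled list (black), replicate 1 (blue) and replicate 2 (orange). The dashed line is the length of the IDR list, 843: 5 pooled points stand above it, and at unc-4 the replicate points are 98 and 1494.

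Of the 6 HOX genes, which pattern the body axis, none had an IDR summit, and each had a weaker pooled candidate. Over all genes 6.27% had an IDR summit and 78.5% a pooled candidate, and 6 genes are too few to read against these shares. The strongest was at lin-39, the midbody HOX gene, with signal value 36.9 at rank 1355. Its summit, III 7534833, lay 1799 bp into the gene and 28 bp upstream of a second transcript start, and it ranked 5054 in replicate 1 (16.6) and 754 in replicate 2 (22.4). This was the one HOX region among the 843 strongest of a replicate. At egl-5, a posterior HOX gene of the Abdominal-B type, the summit 2226 bp upstream had signal value 33.7 at rank 1704, with rank 1778 in replicate 2 (16.7) and no overlapping candidate in replicate 1.

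The remaining HOX genes stood lower in the pooled list. ceh-13, the labial homologue, had signal value 27.8 at rank 2984, 478 bp into the gene, with an overlapping candidate in replicate 1 alone, at rank 4143. mab-5, which acts in posterior cells, had 27.2 at rank 3186, 1182 bp upstream, with ranks of 1209 in replicate 1 and 25812 in replicate 2. The best region of replicate 2 at mab-5 lay elsewhere, in an intron 2584 bp into the gene. It ranked 2432 there and 10873 in replicate 1. nob-1 and php-3, neighbours of the Abdominal-B type that act in the tail, stood lowest in that list, nob-1 with 17.7 at rank 12000 and php-3 with 17.6 at rank 12200. The nob-1 region ranked 3942 in replicate 1, ahead of that of ceh-13, and overlapped no candidate of replicate 2. The php-3 region, in the 3′ UTR of nob-1, ranked 23899 in replicate 1 and 7570 in replicate 2. No HOX gene had a region among the 843 strongest of both replicates, against 3.52% of all genes, a share for which 6 genes are again too few. The median best pooled rank of the 6 was 3085, against 7366.5 over all genes with a candidate. HOX windows were long, from 7382 bp at ceh-13 to 12992 bp at lin-39, against a median of 7026 bp over all genes.

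**Figure D5:**
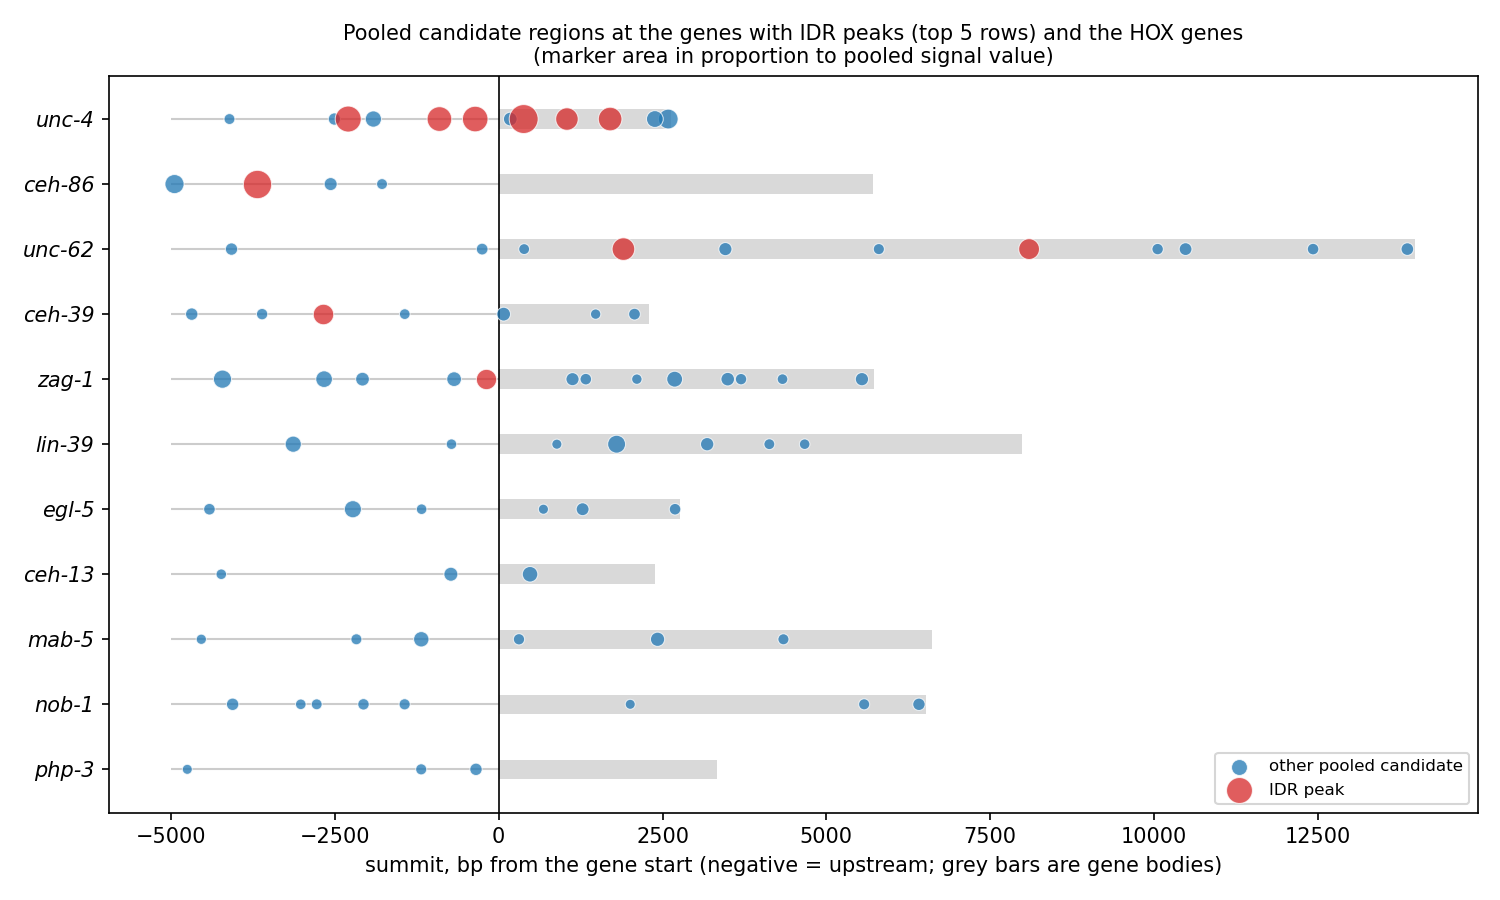
Summits of pooled candidate regions at the 5 members with IDR peaks (top rows) and the 6 HOX genes, by distance from the gene start in bp, with gene bodies as grey bars, IDR peaks in red and marker area in proportion to pooled signal value. The red peaks of unc-4 run across body and upstream region, those of ceh-86 and ceh-39 lie 3685 and 2686 bp upstream, and the HOX rows hold no red peak.

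HOX partners of the TALE class ranged from a gene with an IDR peak to a gene with no candidate. Beside unc-62, the PBX-family gene ceh-60 had signal value 32.6 at rank 1856, 1354 bp upstream, with rank 1328 in replicate 1 (25.02) and no overlapping candidate in replicate 2. ceh-20, the PBX homologue that pairs with HOX proteins, had 26.7 at rank 3362, 924 bp upstream, with ranks of 4627 in replicate 1 and 1133 in replicate 2. ceh-40, the third PBX-family gene, had no candidate in any list.

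Among the members without an IDR summit, the 5 of best pooled rank were unc-30, ceh-88, lin-39, ceh-43 and ceh-38. unc-30, the Pitx homologue that makes GABA motor neurons, had signal value 38.998 at rank 1173, 1885 bp upstream, where best-2 also has it in its window, with ranks of 1087 in replicate 1 and 4595 in replicate 2. It was the first member below the IDR list, whose last member was zag-1 at 812. ceh-88, of no class here, had 36.99 at rank 1348 in a 3′ UTR 393 bp from the start of another gene, C49C3.6. ceh-43, the Distal-less homologue, had 34.6 at rank 1584, 1217 bp upstream, with GAGAGA near the summit, rank 2700 in replicate 1 and no overlapping candidate in replicate 2. ceh-38, a ONECUT gene, had 34.4 at rank 1600, 18 bp upstream of a transcript start, with ranks of 1555 and 10344 in replicates 1 and 2. All but lin-39 stood higher in replicate 1 than in replicate 2.

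Classes rich in genes of neuron identity are given by their values, since each is too small to read a count against the 6.27% of all genes with an IDR summit. Class sizes here and below count members taken by symbol, which need not be every gene of a class. Of the 14 paired-like and PAX genes, unc-4 alone had an IDR summit, and the class median of best pooled ranks was 5611, against 7366.5 over all genes. The medians are not corrected for window length. Windows in this class ran from 6263 bp at ceh-17 to 24691 bp at vab-3, against a median of 7026 bp over all genes. vab-3, the worm Pax6 gene, had its strongest pooled region at rank 2872 in an intron, and this region ranked 13538 in replicate 1 and 10564 in replicate 2. The best regions of the replicates at vab-3 lay in introns elsewhere, at ranks 1787 and 1137. The 7 LIM genes had no IDR summit and ranks from 3293 at lim-4, a gene of olfactory neurons, to 14947 at ttx-3, a gene of thermosensory interneurons. mec-3, which makes touch neurons, stood at 4131. The 3 POU genes ranked from 6650 at ceh-18 to 17908 at ceh-6, and unc-86, another touch neuron factor, had candidates in replicate 2 alone among the replicates, the best at rank 3023.

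The other classes are given likewise. The 20 NK-like and related genes had no IDR summit, and their median best rank of 10662 was the weakest among the classes with 4 or more genes. Within them ceh-22, a pharyngeal muscle gene, stood at rank 5248, with a summit 45 bp from the start of twk-12. The 6 CUT genes had a median of 6525, with ceh-39 the one member with an IDR summit. The 3 members of the sine oculis class ranked from 3585 at ceh-33 to 20961 at ceh-32, a gene of head development. pal-1, the caudal homologue that specifies posterior blastomeres, ranked 6004, and vab-7, the even-skipped homologue, 8760. The 22 members left unclassified had a median of 7042.5, with ceh-86 the one with an IDR summit. Members with no candidate in any list were ceh-1, ceh-40 and ceh-84, and pax-3, ceh-9, ceh-28, ceh-49 and ceh-75 had one in a single replicate and none in the pooled list.

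The strongest pooled region lay upstream of the gene start at 46 of the 80 members, 57.5%, against 74.5% over the 15686 genes with a candidate. Upstream sequence made up a median of 58.3% of the window of these members and 69.3% of that of all genes with a candidate. By annotated feature 29 summits were in introns, 28 between genes, 12 in coding sequence, 8 in 3′ UTRs and 3 in 5′ UTRs. At 53 members, 66.3%, no other protein-coding gene had a nearer start. No share over all genes was computed for features or nearest starts, so these counts describe the members alone. The 80 members shared 78 distinct regions, since ceh-57 and ceh-58, and likewise ceh-81 and ceh-82, are neighbours with a region in common. Within 200 bp of a transcript start of the same gene lay 6 of the 80 summits, 7.5%, against 10.02% over all genes.

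Sequence words were few at these summits. AAGTGAAA lay within 50 bp of 1 of the 11 member IDR summits, 9.09%, against 15.6% of the other 807 nuclear IDR summits, and GAGAGA likewise at 1 of 11, at unc-62, against 30.9%. Without the 6 summits of unc-4 each word lay at 1 of 5, 20%. At the 78 strongest pooled regions of members AAGTGAAA was found at 2, 2.56%, against 2.22% of the other nuclear candidates, and GAGAGA at 4, 5.13%, against 7.68%. The second region with AAGTGAAA was that of ceh-17, the Phox2 homologue, 1699 bp upstream, at pooled rank 8360 and rank 1546 in replicate 1, with no candidate in replicate 2. The ceh-17 summit lay in coding sequence of another gene, col-52, which also has it in its window. The median G+C content around the member IDR summits was 35.6%, against 43.6% at the other nuclear IDR summits. Without unc-4 it was 46.5% over 5 summits, above the other IDR summits. It was 31.7% at the strongest pooled regions of members, as at other candidates.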

How the data were processed

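The 2 replicates of 1 group were available as ChIP-seq peak lists for tagged BLMP-1. The signal value is a score deposited by the authors for each region, whose scale and normalization the deposited lists do not state, so sizes were not compared between lists. The deposited -log10 q value (narrowPeak convention) was used only for an alternative ranking, and the deposited summit offset is in bp. The build is ce11 per the file names; no aligner, peak caller or IDR threshold is given in the sources used here. Lists on ce10 were not used here.

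Regions were ranked by signal value within each list. Genes came from Ensembl release 115 (WBcel235), sequence from RefSeq's copy of the same assembly, and positions are 1-based. A gene start is the outermost annotated 5′ end, and a window is the gene body plus 5000 bp upstream. Where a pooled region is given with a replicate rank, that rank is of the strongest candidate overlapping it by at least 1 bp. Both strands were scanned for words lying entirely inside 50 bp of a summit. Members were taken by symbol, and a further gene of matching symbol was left out. Members, homeobox classes and lists were chosen with earlier results of these data known. With 1 group and no second condition no test was run. The named genes were to be every member with an IDR summit, the 6 HOX genes, the 5 next by pooled rank, the 5 with the largest difference between replicate ranks, the 5 with the most IDR summits, unc-4 and members with no candidate. Other genes were named after their values were seen. Alternatives changed the window, peak set, ranking, word reach and length, used each replicate alone, or left out unc-4. The code was tested on simulated data (Python 3.11.15, pandas 2.3.3, numpy 2.4.6).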

Additional observations from a re-analysis of the deposited data

How the results depend on the processing

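Of 36 alternative settings over 8 results, 23 kept the value within 1.5 times (counts and densities), the interval of the share, the SD of the replicate medians, or the same side of the other IDR summits (G+C content). Members with an IDR summit numbered 3 with 2000 bp upstream, against 4.24% of all genes, 2 in the promoter window alone (3.36%) and 2 with the 422 strongest IDR peaks (3.16%). With a single replicate's 843 strongest regions they numbered 4 to 5, the summits at members 5 to 12, and the summits per Mb 6.31 to 15.1. The low value of each pair of summit results came without replicate 1, which holds the unc-4 regions. Without unc-4, an alternative added after the data were seen, there were 5 summits and 6.37 per Mb, and their median G+C content was 46.5%. With unc-4 kept, the 422 strongest IDR peaks put 5 summits at members. Their pooled ranks were 182, 280, 309 and 365 at unc-4 and 199 at ceh-86. The median best pooled rank was 8861 with 2000 bp upstream and 12361 in the promoter window, and 5395 to 7746.5 in the lists of single replicates. Members at the top of both replicates numbered 1 for top sets of 500 regions and 6 for 2000, against 2.29% and 6.87% of all genes. No paired analysis was possible because all samples belong to 1 group. Depth is unknown, so the absence of a candidate does not show the absence of BLMP-1.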
